A study of Rattus norvegicus with 6 samples.

Results

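The tubulin genes described here are Tuba8, which encodes alpha-tubulin 8, and 9 other alpha- and beta-tubulin genes of the rat, namely Tuba1a, Tuba1b, Tuba1c, Tuba4a, Tubb2a, Tubb2b, Tubb3, Tubb5 and Tubb6. They were found by their symbols in the deposited count table, where all 10 had a row among 20609 genes. The list was chosen by the difference between the groups in these same libraries, in which Tuba8 had one of the largest increases. The differences of these 10 genes between the groups are therefore given as a description, with no p-value. Counts of those past the threshold used for all genes follow from that choice and are no evidence about the list. The libraries came from PC12, a line established from a rat pheochromocytoma, which is a tumor of the adrenal medulla. In the 3 control libraries the cells carried a control plasmid. In the 3 PCBP1-OE libraries they carried a plasmid for PCBP1 (poly(C)-binding protein 1, an RNA-binding protein), which according to the methods is tagged with EGFP. The design asked how gene expression and splicing differ after overexpression, and both groups share the same line and culture, with no other treatment in the labels.

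Alpha- and beta-tubulin pair into dimers that polymerize into microtubules, the hollow filaments that form the spindle, the tracks for kinesin and dynein motors and the core of neurites. Each is encoded by several genes, called isotypes, whose products differ mainly in their C-terminal tails, and cells use them in different proportions. Tuba1a and Tubb3 are typical of neurons, Tubb5 and Tuba1b are made in most dividing cells, and Tuba8 is a divergent alpha isotype best known from heart, skeletal muscle, testis and brain.

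The libraries held 19730209 to 22315623 counts on genes, and libraries of the same group differed beyond sampling noise (chi-square per gene of 5.85 to 17.2). Levels are given as raw counts and as CPM, counts per library total scaled by the TMM method. These values are not divided by transcript length, so a level is compared with the same gene in another library and not with another gene. The labels do not say whether the replicates were separate cultures, so the spread between them may be technical. No row of the table was matched to the PCBP1 gene, and its overexpression was not checked here. Of the 8 markers of the chromaffin cell, from which PC12 derives, 5 had at most 9 counts in any library, among them Dbh (0 to 5) and Chga (0 to 3). The other 3 were Th, with 141 to 185 counts, Gata3, with 26 to 38, and Slc18a1, with 17 to 28. The summed level of the 8 chromaffin markers with a row was 10.5 to 11.2 CPM in control and 10.2 to 11.8 CPM in PCBP1-OE libraries. Glial markers were abundant, at 796.3 to 852.7 CPM in control and 742.6 to 767.8 CPM in PCBP1-OE for 7 genes that include Sox10 and S100b. Of these, 5 were tested and 1 (Pmp22) was called lower. Beside this, 5.0% of all genes tested were called lower, and 14.6% of those with a mean of at least 100 CPM.

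Tuba8 (ENSRNOG00000048169, chromosome 4) was the only one of the 10 listed genes that was higher in every PCBP1-OE library than in every control. It had few counts in both groups. It had 3, 2 and 2 counts in the control libraries and 12, 13 and 12 in PCBP1-OE. The groups did not overlap, and each stayed within 1 count of its own middle value. In TMM-scaled CPM, the level was 0.113 ± 0.0351 (SD, n = 3) in control and 0.601 ± 0.0510 (SD, n = 3) in PCBP1-OE. The fitted log2 fold change was 2.37, with a standard error (SE) of 0.51, or 5.16-fold. From the summed counts, 7 in control and 37 in PCBP1-OE, the ratio of CPM was 5.38, and its exact 95% interval, for counting error alone, was 2.37 to 14.3. The same kind of interval placed the level at 0.0447 to 0.229 CPM in control and at 0.421 to 0.825 CPM in PCBP1-OE.

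Tuba8 gave few of the alpha-tubulin counts in both groups. It contributed 0.00662% ± 0.0017 (SD, n = 3) of the counts of the 5 alpha-tubulin genes in control and 0.0449% ± 0.0039 (SD, n = 3) in PCBP1-OE. It entered the tested genes through the PCBP1-OE libraries alone, since the filter asked for 0.482 CPM in at least 3 libraries, which 3 PCBP1-OE libraries and 0 controls reached. That Tuba8 was tested at all therefore rested on the group in which it was high. The size of the fitted change also moved with its settings, to 1.74 with a prior count of 2 and to 2.63 without control replicate 1. Under a filter of 1 CPM in 3 libraries Tuba8 was not tested.

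No marker of the muscle or testis lists, tissues in which Tuba8 is best known, was called higher. Only 5 muscle and 2 testis markers were tested, and 4.45% of all genes were called higher, so this absence says little. The 13 skeletal and heart muscle markers with a row had a summed level of 10.3 to 12.3 CPM in control and 7.73 to 10.1 CPM in PCBP1-OE, and 5 of them could be tested. Of these, Ckm, the muscle creatine kinase, and Tnnt2, the cardiac troponin T, were lower, with log2 fold changes of -0.77 and -0.61 (adjusted p = 0.0477 and 0.0460). Among all genes tested, 5.0% were called lower. The other muscle markers tested did not pass, with log2 fold changes of -1.05 for Acta1, 0.40 for Des and 0.0055 for Tnnc1. The 7 testis germ cell markers with a row were at 101.0 to 104.4 CPM in control and 100.2 to 102.3 CPM in PCBP1-OE, nearly all of it from Odf2, at 98.8 ± 2.53 CPM and 97.8 ± 2.25 CPM (SD, n = 3 each). Dazl was at 3.22 and 3.15 CPM on average, and the other 5 markers had at most 8 counts in any library. No marker of either list was at 0 in all libraries.

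The promoter window of Tuba8 is shown with those of Tuba1b and Tubb5, the alpha and the beta isotype with the most counts here, because Tuba8 was higher and these genes lower in PCBP1-OE. The sequences are RefSeq's on the assembly GRCr8, from 250 bases before to 50 bases after the annotated start, 5′ to 3′ on the gene's strand. Capitals mark matches on either strand to the TATA box core TATAA, the box CCAAT, the GC box GGGCGG and the E-box core CACGTG. The E-box core reads the same on both strands. On the other strand a GC box appears as CCGCCC and the box CCAAT as ATTGG. None of these matches overlapped another in the windows printed.
Tuba8, chr4:156112022-156112321, plus strand: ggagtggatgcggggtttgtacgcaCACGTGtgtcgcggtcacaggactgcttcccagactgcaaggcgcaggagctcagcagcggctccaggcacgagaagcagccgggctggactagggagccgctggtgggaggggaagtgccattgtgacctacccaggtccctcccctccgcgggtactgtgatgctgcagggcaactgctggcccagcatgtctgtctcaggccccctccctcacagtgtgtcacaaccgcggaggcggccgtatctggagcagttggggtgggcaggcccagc
Tuba1b, chr7:131972538-131972837, minus strand: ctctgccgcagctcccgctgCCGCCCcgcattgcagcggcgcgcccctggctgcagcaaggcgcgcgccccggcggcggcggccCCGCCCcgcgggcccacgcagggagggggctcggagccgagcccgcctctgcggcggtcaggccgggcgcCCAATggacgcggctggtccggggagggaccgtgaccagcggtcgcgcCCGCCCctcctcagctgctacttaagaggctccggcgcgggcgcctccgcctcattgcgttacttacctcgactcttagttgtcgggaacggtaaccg
Tubb5, chr20:2917327-2917626, plus strand: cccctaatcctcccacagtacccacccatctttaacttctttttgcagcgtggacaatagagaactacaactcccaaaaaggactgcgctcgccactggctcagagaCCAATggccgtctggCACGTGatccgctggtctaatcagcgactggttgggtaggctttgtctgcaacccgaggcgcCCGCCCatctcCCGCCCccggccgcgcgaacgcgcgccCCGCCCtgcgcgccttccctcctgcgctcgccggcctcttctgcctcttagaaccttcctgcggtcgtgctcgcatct

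In the Tuba8 window the only match was the E-box core, which began 225 bases before the start. The Tuba1b window held CCAAT once and GGGCGG 3 times, and the Tubb5 window held CCAAT once, GGGCGG 3 times and CACGTG once, 128 bases before the start. Over the windows of all 10 tubulin genes, TATAA was found in 5, CCAAT in 7, GGGCGG in 8 and CACGTG in 2. Among all 33469 RefSeq promoter windows of the same length the shares were 26.2% for TATAA, 37.5% for CCAAT, 33.1% for GGGCGG and 6.42% for CACGTG. A spaced interferon-type element, GAAA and GAAA with any 2 bases between them, was in 0 of the 10 windows and in 3.92% of all windows. The GC content was 66.0% for Tuba8, 75.7% for Tuba1b and 62.3% for Tubb5, against a median of 51.7% over all windows. These matches describe letters in the windows and do not show that a factor binds there.

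The neighbours of Tuba8 in the RefSeq gene order were read to see whether its counts moved with those of nearby genes. On one side lies Pex26, a peroxisome assembly factor, and on the other, past a noncoding RNA gene, Usp18, an interferon-stimulated protease that removes ISG15 from its targets. Of the 6 neighbours, 3 on each side, the other 4 are long noncoding RNA genes that were not matched to a row. Pex26 had 274, 267 and 353 counts in control and 346, 310 and 297 in PCBP1-OE, with overlapping CPM (log2 fold change 0.12, SE 0.10, adjusted p = 0.466 from edgeR). Usp18 rose from 467, 509 and 432 counts to 743, 766 and 648. Its level was 22.5 ± 2.81 CPM in control and 34.9 ± 2.66 CPM in PCBP1-OE (SD, n = 3 each), with a fitted log2 ratio of 0.64 (SE 0.09, edgeR adjusted p = 0.00445). Usp18 passed an FDR of 0.05 with each library left out in turn (adjusted p = 0.000388 to 0.0359). A share of reads between neighbouring genes was not tested.

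**Figure D1:**
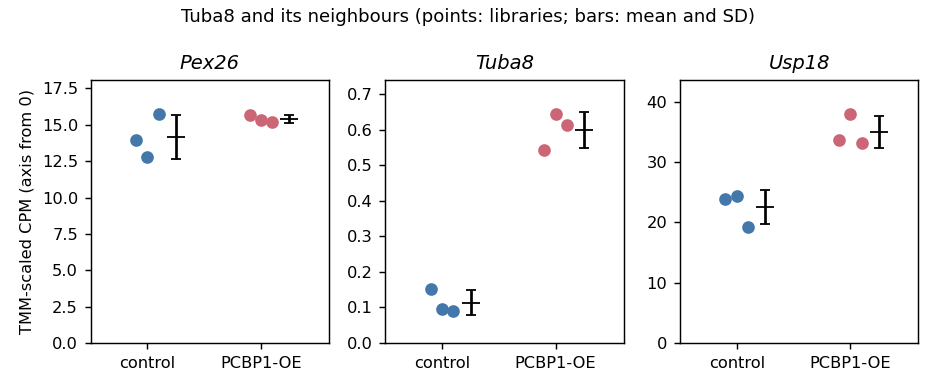
TMM-scaled CPM of Pex26, Tuba8 and Usp18 in each library (points), with the mean and SD of 3 libraries per group (bars), each panel on its own axis from 0. The 3 PCBP1-OE points lie above the 3 control points for Tuba8 (0.545 to 0.644 against 0.0892 to 0.153 CPM) and for Usp18, while those of Pex26 overlap.

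The abundant tubulin genes were lower in PCBP1-OE. Among the alpha isotypes, Tuba1b (ENSRNOG00000053468, chromosome 7) had 23038, 25694 and 21690 counts in control and 18841, 17283 and 17782 in PCBP1-OE. Its level was 1124 ± 139 CPM in control and 873 ± 30.1 CPM in PCBP1-OE (SD, n = 3 each), with a log2 fold change of -0.36 (SE 0.07). Every PCBP1-OE library was below every control, and control replicate 3, at 967 CPM, was the control nearest to PCBP1-OE. Tuba1a (ENSRNOG00000060728, chromosome 7), the isotype of developing neurons, had 12100, 12347 and 11109 counts in control and 10038, 9124 and 9306 in PCBP1-OE. Its level was 568 ± 64.2 CPM and 461 ± 12.4 CPM (SD, n = 3 each), with a log2 fold change of -0.30 (SE 0.07). The groups did not overlap here either, and control replicate 3 was again the lowest control, at 495 CPM.

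Of the beta isotypes, Tubb5 (ENSRNOG00000061216, chromosome 20), the general beta isotype of dividing cells, had 20365, 21324 and 21289 counts in control and 18242, 16560 and 16008 in PCBP1-OE. This was 1003 ± 47.4 CPM against 822 ± 5.38 CPM (SD, n = 3 each), with a fitted log2 ratio of -0.29 (SE 0.05). The 3 PCBP1-OE libraries lay close together, at 817 to 828 CPM, below the lowest control at 949 CPM. Tubb6 (ENSRNOG00000018371, chromosome 18), a divergent beta isotype, had 9750, 9970 and 9763 counts in control and 8571, 7732 and 7550 in PCBP1-OE (log2 fold change -0.28, SE 0.05). Tubb2b (ENSRNOG00000017445, chromosome 17), a beta isotype of developing neurons, had 3598, 3319 and 3324 counts in control and 2746, 2498 and 2579 in PCBP1-OE (log2 fold change -0.37, SE 0.07). Neither gene overlapped between the groups in CPM. Its close relative Tubb2a (ENSRNOG00000017558, chromosome 17) had 2912, 3113 and 2541 counts in control and 2569, 2204 and 2313 in PCBP1-OE. In this gene control replicate 3, at 113 CPM, fell inside the PCBP1-OE range of 109 to 118 CPM, and the log2 fold change was -0.26 (SE 0.08).

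The remaining members were scarce and their groups overlapped. Tubb3 (ENSRNOG00000017209, chromosome 19), the beta isotype used as a marker of neurons, had 68, 104 and 92 counts in control and 97, 83 and 100 in PCBP1-OE, with a log2 fold change of 0.11 (SE 0.17). Tuba4a (ENSRNOG00000003597, chromosome 9), an alpha isotype whose gene does not encode the C-terminal tyrosine, had 41, 37 and 50 counts in control and 73, 39 and 35 in PCBP1-OE. The log2 fold change of 0.21 (SE 0.26) rested on PCBP1-OE replicate 1 and was -0.13 without it. Tuba1c (ENSRNOG00000021438, chromosome 7) had 19, 11 and 6 counts in control and 6, 4 and 9 in PCBP1-OE, too few to be tested. Tuba1a, Tuba1b and Tuba1c are near-identical in their coding sequence, as are Tubb2a and Tubb2b, and only uniquely mapped reads were counted, so the split of reads within these groups is uncertain.

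**Figure D2:**
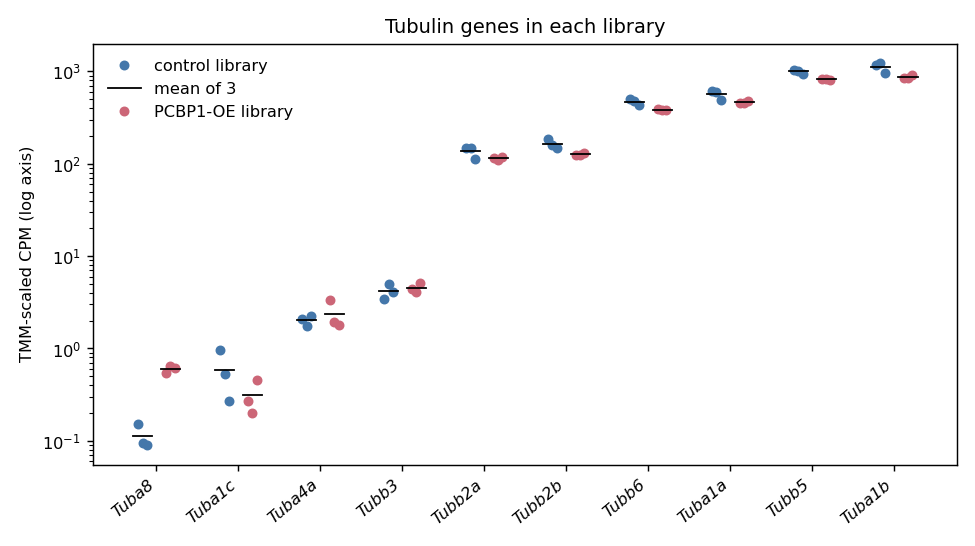
TMM-scaled CPM of the 10 tubulin genes in each library (points) and the mean of 3 libraries per group (lines), on a log axis, ordered by the control mean. Tuba8 lies below 1 CPM with separated groups, Tuba1c, Tuba4a and Tubb3 overlap, and the abundant genes at 100 CPM or more sit slightly lower in PCBP1-OE; levels of different genes are not adjusted for length.

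In all, 9 of the 10 genes passed the filter on low counts, and 6 of the 9 were called at an FDR of 0.05, with 1 higher (Tuba8) and 5 lower (Tuba1a, Tuba1b, Tubb2b, Tubb5 and Tubb6) in PCBP1-OE. Over all 12624 genes tested, 9.45% were called, with 4.45% higher and 5.0% lower. The same 6 genes were those whose groups did not overlap, against 14.1% of all tested genes with PCBP1-OE higher and 16.5% with PCBP1-OE lower. As the list was chosen on this contrast, and Tuba8 passed the filter through 1 group alone, nothing is read from these counts. The median log2 fold change was -0.29 over the 9 genes and 0.003 over all genes tested. The calls depended on single libraries, with 5 lower calls in the full set. Omission of control replicates 1, 2 and 3 left 3, 1 and 6 lower calls, and omission of PCBP1-OE replicates 1, 2 and 3 left 2, 1 and 5. Lower calls over all genes moved as well, from 631 in the full set to 79, 12 and 1465 without these control replicates. Without the PCBP1-OE replicates they were 67, 48 and 359. Tuba8 was not past the threshold in 3 of these 6 fits, those that left out control replicate 2 and PCBP1-OE replicates 1 and 2, and DESeq2 gave it no adjusted p. The negative sign of the 6 abundant genes was kept with each library left out. The fold changes of Tuba1b, Tuba1a and Tubb2a moved most without control replicate 3, to -0.46, -0.39 and -0.38, and that of Tubb2b moved most without control replicate 1, to -0.27.

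The tubulin genes were also divided by abundance, at a mean of 100 CPM chosen after the values were seen. Above it were 6 of the 10 genes, all at negative log2 fold changes, with differences of -16.2% to -22.5% and a median log2 fold change of -0.29. Of these 6 genes, 5 were past the threshold and lower, a count that again follows from the choice of the list. Among all 2158 genes at or above 100 CPM, 14.6% were called lower and 19.0% in either direction, with a median log2 fold change of -0.053. In a bulk sample, fewer cells of a kind and less RNA per cell cannot be told apart.

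**Figure D3:**
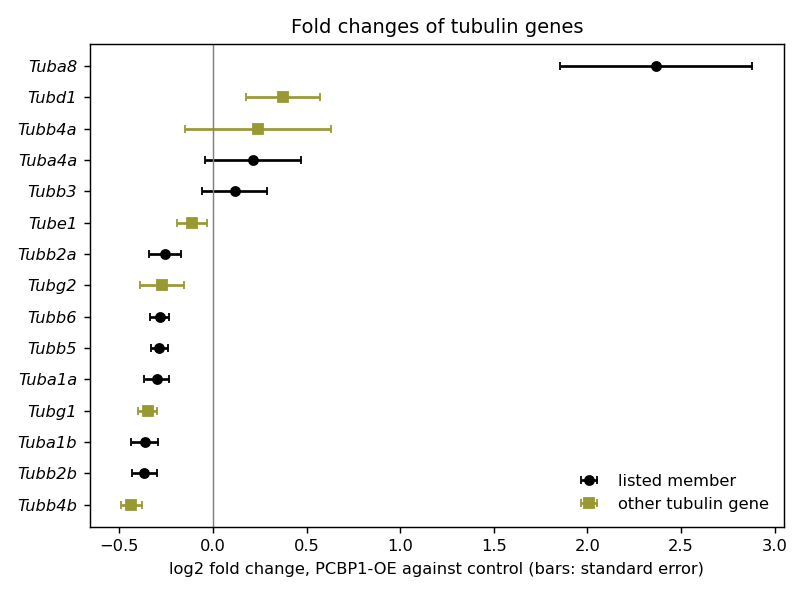
Log2 fold change of PCBP1-OE against control with its standard error for the 9 tested members (black circles) and 6 other tubulin genes (olive squares). Tuba8 stands alone at 2.37 with a wide error of 0.51, and the abundant genes lie together between -0.26 for Tubb2a and -0.44 for Tubb4b.

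The shares of the isotypes with the most counts were close in both groups, while those of Tuba8 and Tubb3 differed. The 10 genes together took 0.342% ± 0.0248 (SD, n = 3) of the counts of a control library and 0.283% ± 0.00306 (SD, n = 3) of a PCBP1-OE library, with ranges of 0.313% to 0.357% and 0.28% to 0.286%. The alpha genes took 0.167% ± 0.0172 and 0.136% ± 0.0020, and the beta genes 0.175% ± 0.00794 and 0.148% ± 0.00306 (SD, n = 3 each). Alpha and beta counts here are those of the 10 listed genes alone. They leave out the abundant beta isotype Tubb4b, at 547 CPM in control and 404 CPM in PCBP1-OE, so shares and ratio hold within the list only. Of the alpha counts, Tuba1b gave 66.3% ± 1.08 in control and 65.3% ± 0.252 in PCBP1-OE, and Tuba1a gave 33.5% ± 1.03 and 34.5% ± 0.153 (SD, n = 3 each). The shift of 1 percentage point was within the SD of the controls. Of the beta counts, Tubb5 gave 56.5% ± 1.00 and 56.6% ± 0.451, and Tubb6 26.5% ± 0.115 in both groups (SD, n = 3 each). Tubb2a gave 7.68% ± 0.716 and 7.88% ± 0.271, and Tubb2b 9.19% ± 0.550 and 8.71% ± 0.276 (SD, n = 3 each), with overlapping ranges. Tubb3 gave 0.185% to 0.275% of the beta counts in control and 0.285% to 0.35% in PCBP1-OE, ranges that did not overlap although its CPM did, beside lower counts of the abundant beta genes. The share of Tuba8, given above, did not overlap either, and those of Tuba1c and Tuba4a did. The ratio of alpha to beta counts overlapped between the groups, at 0.888 to 1.01 in control and 0.899 to 0.951 in PCBP1-OE. These shares follow reads and not molecules, because they are not adjusted for transcript length.

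**Figure D4:**
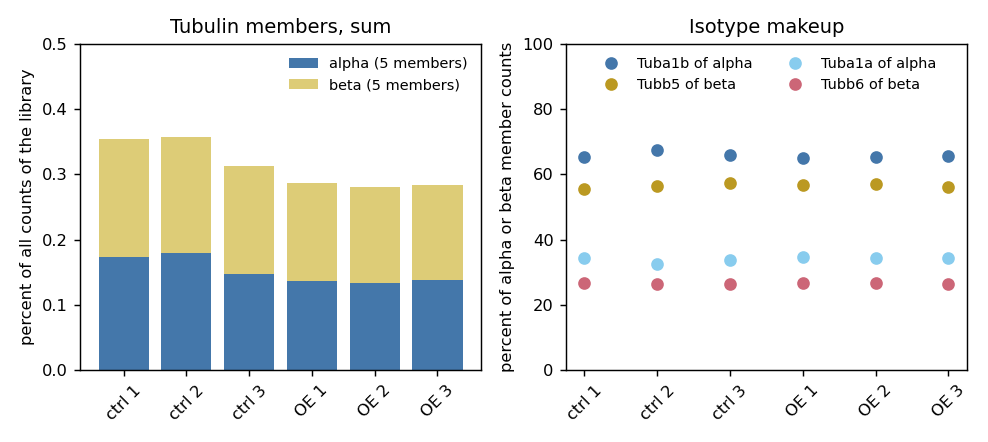
Left, summed counts of the listed alpha (blue) and beta (yellow) tubulin genes as a percent of all counts in each library, on an axis from 0. Right, the main listed isotypes as a percent of the listed alpha or beta counts. The 3 PCBP1-OE libraries are at 0.28% to 0.286% and the controls at 0.313% to 0.357%, while the isotype shares stay level across libraries.

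Tubulin genes outside the chosen list were read from gene lists written for this description and tested in the same fit. Of the other 6 alpha and beta isotypes, Tubb4b (ENSRNOG00000010170, chromosome 3), a widely made beta isotype, fell from 11342, 11638 and 11332 counts to 8587, 8123 and 8248. Its level was 547 ± 37.7 CPM in control and 404 ± 15.8 CPM in PCBP1-OE (SD, n = 3 each), with a fitted log2 ratio of -0.44 (SE 0.05, adjusted p = 0.00149). It passed an FDR of 0.05 with each library left out, with adjusted p from 2e-05 to 0.0202. Tubb4a had 11, 10 and 9 counts in control and 16, 9 and 10 in PCBP1-OE and did not pass (adjusted p = 0.733). Tuba3a, Tuba3b, Tubal3 and Tubb1, isotypes of testis or blood platelets among others, had at most 3 counts in any library and were not tested.

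Gamma-tubulin nucleates microtubules from a ring-shaped complex, and its main gene Tubg1 (ENSRNOG00000020213, chromosome 10) fell from 3563, 3911 and 3814 counts to 2972, 2953 and 2782. The groups did not overlap, at 180 ± 8.82 CPM and 141 ± 5.80 CPM (SD, n = 3 each), with a log2 fold change of -0.35 (SE 0.05, adjusted p = 0.00422). Without control replicate 2 it was at an adjusted p of 0.0648, in a range of 0.000145 to 0.0648 with each library left out. It was the only one of the 13 genes of the gamma, delta and epsilon tubulins and their ring complex to pass. This made 1 lower (7.69%, beside 5.0% of all genes) and 0 higher (beside 4.45%). Like Tuba8, the delta-tubulin gene Tubd1 was higher in every PCBP1-OE library than in every control, as were 14.1% of all genes tested. Its log2 fold change was 0.37 (SE 0.20), and it did not pass (edgeR adjusted p = 0.238).

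The genes that fold and assemble tubulin dimers, from the chaperonin subunits and prefoldin to the tubulin cofactors, gave no call. Of 21 tested, 0 passed an FDR of 0.05 by edgeR's quasi-likelihood test, beside 9.45% of all genes. An unadjusted p under 0.05 was found for 3 of the 21, beside 3588 of all 12624 genes tested. DESeq2 called 1 and limma-voom 0, beside 1418 and 1197 of all genes. The fit without a filter called 3 genes of this list, beside 2090 of 20609 genes. Without control replicate 3, 4 of the folding genes passed, beside 2860 of the 12815 genes tested in that fit. The median log2 fold change of the 21 genes was -0.048, with 17 below 0 and 4 above. The smallest p-values were those of the prefoldin subunits Pfdn1, with a log2 fold change of -0.20 (SE 0.06, adjusted p = 0.0566), and Pfdn6, with -0.22 (SE 0.07, adjusted p = 0.0678).

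Among 17 tubulin-modifying enzymes, 1 was lower (5.88%, beside 5.0% of all genes) and 0 higher (beside 4.45%). It was Sirt2, a deacetylase of alpha-tubulin among other substrates, at 169 ± 4.23 CPM in control and 148 ± 1.54 CPM in PCBP1-OE (SD, n = 3 each), with a log2 fold change of -0.19 (SE 0.04, adjusted p = 0.0201). Among 27 microtubule-associated proteins and stathmins, 2 were lower (7.41%, beside the same 5.0%) and 0 higher. Stmn1, which sequesters free tubulin dimers, had a log2 fold change of -0.26 (SE 0.07, adjusted p = 0.0335), with groups that overlapped. Tpx2, a spindle assembly factor, had -0.22 (SE 0.04, adjusted p = 0.0138). Among 10 severing and depolymerising enzymes, 2 were lower and 0 higher. They were the mitotic kinesins Kif2c, with -0.33 (SE 0.07, adjusted p = 0.0201), and Kif18b, with -0.20 (SE 0.05, adjusted p = 0.0196).

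Of 23 transport motor genes tested, 3 rose (13%, beside 4.45% of all genes) and 1 fell (4.35%, beside 5.0%), and whether this list differed from the others was not tested. None of the 3 that rose passed without control replicate 2, with adjusted p of 0.0682 for Kif5b, 0.127 for Dync1h1 and 0.158 for Dctn4. Kif5b, the heavy chain of conventional kinesin, went from 1150, 1073 and 1494 counts to 1669, 1625 and 1461, a log2 fold change of 0.38 (SE 0.08, adjusted p = 0.0134). Dync1h1, the heavy chain of cytoplasmic dynein, had 1794, 1416 and 1596 counts in control and 1977, 2447 and 2381 in PCBP1-OE. The log2 fold change was 0.53 (SE 0.12, adjusted p = 0.0193), although the groups overlapped in CPM. Dctn4, a subunit of the dynein activator dynactin, had 0.59 (SE 0.15, adjusted p = 0.0308), with control replicate 3, at 574 counts, well above the other controls at 327 and 333. Dynlrb1, a light chain of dynein, fell, with a log2 fold change of -0.24 (SE 0.06, adjusted p = 0.0282).

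Over the 113 pathway genes tested, 3 were higher (2.65%) and 8 lower (7.08%), beside 4.45% and 5.0% of all genes. The groups overlapped in 78 of the 113, a share close to that of all genes tested (8758 of 12624). By direction, 26 of the 113 did not overlap with PCBP1-OE lower and 9 with PCBP1-OE higher. Over all 12624 genes these counts were 2083 and 1783. Whether the shares by direction differed was not tested. The median log2 fold change of the 113 genes was -0.034. Single libraries decided most of these calls. Omission of control replicates 1, 2 and 3 left 3, 1 and 22 calls, and omission of PCBP1-OE replicates 1, 2 and 3 left 4, 2 and 7. Calls over all genes moved as well, from 1193 in the full set to 246, 48 and 2860 without these control replicates. Without the PCBP1-OE replicates they were 169, 136 and 697. Tubb4b passed under all 6 omissions and Tubg1 under 5, whereas each of the other 9 genes passed under 1 to 3 of them. The largest adjusted p under an omission was 0.164 for Sirt2, 0.168 for Stmn1, 0.126 for Tpx2, 0.11 for Kif2c, 0.0961 for Kif18b, 0.0682 for Kif5b, 0.127 for Dync1h1, 0.158 for Dctn4 and 0.17 for Dynlrb1, in each case without control replicate 2.

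**Figure D5:**
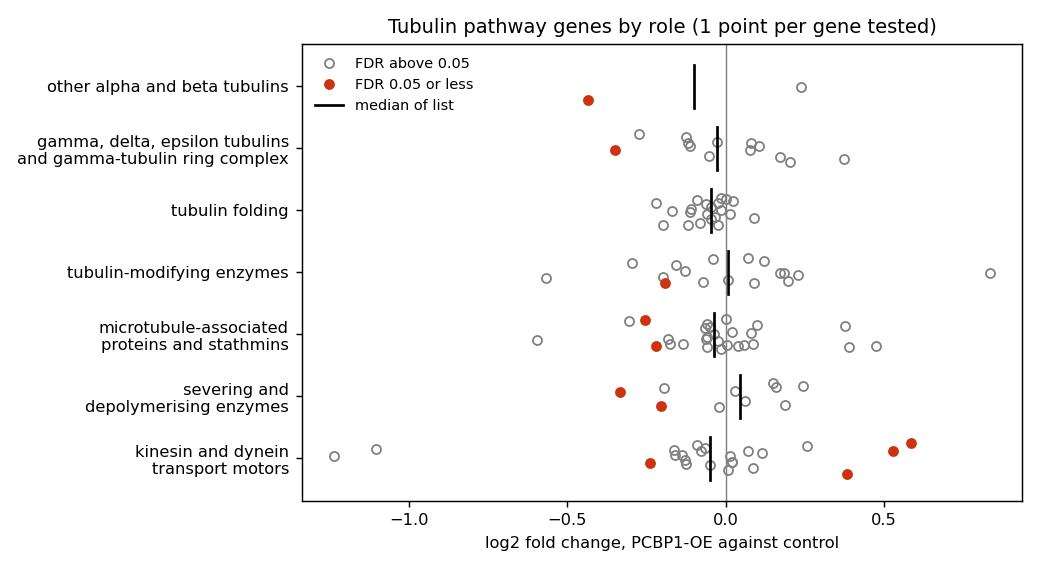
Log2 fold change of PCBP1-OE against control for the 113 tested genes of 7 lists, 1 point per gene, with filled red points at an FDR of 0.05 or less and a black line at each list's median. The red points are 8 genes below 0, led by Tubb4b at -0.44, and 3 motor genes above 0, and the list medians lie between -0.099 and 0.044.

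Genes with a pattern like that of Tuba8 were ranked by Pearson's r of log2 CPM over the 6 libraries, a measure that a shared difference between the groups raises by itself. The 5 with the highest r were Vps13c, a lipid transfer protein (0.993), Junb, an immediate early transcription factor (0.991), Mx1, an interferon-induced antiviral GTPase (0.991), Trim63, a ubiquitin ligase known from muscle (0.989), and Cyr61, a matricellular protein (0.986). They were picked out of 12623 genes, of which 107 reached an r of 0.95, and no p is given. Mx1 had 41, 32 and 32 counts in control and 77, 86 and 83 in PCBP1-OE. Trim63 had 55, 52 and 60 counts in control and 80, 80 and 75 in PCBP1-OE. In all 5 genes every PCBP1-OE library was above every control in CPM, as it was in Tuba8 and in 14.1% of all genes tested. The choice of the 5 genes by r favours such a pattern.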

How the data were processed

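RNA-seq was done on 3 control and 3 PCBP1-OE libraries, grouped by their titles. The values the authors deposited are raw read counts of each gene, not normalized. Their methods give trimming by FASTX-Toolkit, TopHat2 alignment to Rnor_6.0 and use of uniquely mapped reads, whereas the submitters' processing notes list the build GRCh38. How reads were counted (tool, strand setting, annotation) is not given in the sources used here, and the labels and the methods name different stranded library kits. Depth was 19730209 to 22315623 counts per library, so a gene at Tuba8's level rests on few counts.

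The counts were tested with edgeR 4.0.16 (R 4.3.3): TMM scaling, filterByExpr (minimum count 10, minimum total count 15; 12624 genes kept, 7985 left out), quasi-likelihood test, Benjamini-Hochberg adjustment over all genes tested, FDR 0.05. The study's added 2-fold threshold was not used. Exact intervals and shares were computed in Python 3.11.15 (scipy 1.17.1). The pipeline was tested on simulated data. Other settings tried were upper-quartile or RLE scaling, omission of each library in turn, a replicate block, DESeq2 1.42.0, limma-voom (limma 3.58.1), a larger prior count, and the low-count filter dropped or made stricter.

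The members and gene lists were chosen with earlier results of these data known. Named genes follow a rule: all members, all other alpha and beta tubulins, up to 4 higher and 4 lower calls per list (or the 2 smallest p), 3 RefSeq neighbours on each side of Tuba8, and the 5 genes most correlated with it. Tubd1 was named outside this rule. Lists were matched by symbol, 130 of 136 genes. A symbol with several rows was represented by the row with the most counts. Of the marker lists, fibroblast genes (4 matched) summed to 225.0 to 230.3 CPM in control and 200.1 to 212.2 CPM in PCBP1-OE. Nearly all of this came from Pdgfra (223 and 203 CPM on average). Leukocyte genes (4 matched) summed to 6.82 to 7.76 CPM in control and 6.13 to 6.22 CPM in PCBP1-OE. Only 3 fibroblast and 2 leukocyte genes were tested, with 0 calls beside 9.45% of all genes, so this absence says little. RefSeq tables of the assembly GRCr8, another build than Rnor_6.0, were used for gene names, gene order and promoter sequence alone.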

Additional observations from a re-analysis of the deposited data

How the results depend on the processing

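The sign of the change was kept under every alternative run for Tuba8, Tuba1a, Tuba1b, Tubb2a, Tubb2b, Tubb5 and Tubb6. The log2 fold change of Tuba8 was 1.74 with a prior count of 2 and 2.22 to 2.63 with each library left out (2.63 without control replicate 1), and the stricter filter left it untested. Without a filter, 2090 genes were called (1079 higher, 1011 lower), and 18 pathway genes (6 higher, 12 lower). With 1 library left out, 48 to 2860 genes were called (36 to 1395 higher, 12 to 1465 lower), and 1 to 22 pathway genes (0 to 7 higher, 1 to 15 lower), fewest without control replicate 2 and most without control replicate 3. Upper-quartile scaling called 655 genes higher and 427 lower, against 562 and 631 by TMM. Libraries sharing a replicate number did not deviate together (correlations of -0.0776, -0.0514 and -0.0428), so the numbers do not pair them. With the replicate number as a block, 16 genes were called (14 higher, 2 lower), and 0 pathway genes (0 higher, 0 lower), and 0 of the 10 tubulin genes, and Tubb4b was at an adjusted p of 0.0711. The cause of these differences was not tested. At 7 counts in control, the size of Tuba8's change is limited by depth.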

Other observations

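Other genes with tubulin in their description, read after their values were seen, included Tpgs2 and Tpgs1, subunits of the complex that adds glutamate chains to tubulin tails. Tpgs2 had 2735, 2852 and 3011 counts in control and 2614, 2408 and 2526 in PCBP1-OE. This was a log2 fold change of -0.16 (SE 0.05, edgeR adjusted p = 0.0463), with groups that did not overlap in CPM. Tpgs1 had a log2 fold change of -0.15 (SE 0.06) and did not pass (adjusted p = 0.122).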
